A study of Homo sapiens with 10 samples.

Results

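The 6 genes described here are BRD9, BICRA and BICRAL, which encode the subunits particular to the non-canonical BAF complex (ncBAF), SS18 with its paralog SS18L1, and SSX1, a partner of SS18 in the synovial sarcoma fusion gene. They were chosen by gene name among 63140 gene identifiers in the count table. The rule used no measured value, but earlier results of these data were known when it was made. All 6 had enough counts to be tested, among 16382 genes that did. The cells were HS-SY-II, a line established from a human synovial sarcoma, and their RNA was sequenced as stranded poly(A) libraries. WA-68, a degrader of the BRD9 protein, was given at 100 nM for 12, 24, 48 or 96 h, and cultures with DMSO, its vehicle, served as controls. Each of the 5 groups had 2 biological replicates, 10 libraries in all. No harvest time is given for the DMSO cultures, so time in culture and WA-68 cannot be told apart in a comparison with DMSO. All libraries come from 1 cell line, so p-values measure the spread between these cultures only.

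BAF complexes are chromatin remodellers that slide or evict nucleosomes with the energy of ATP. The non-canonical form is built around BRD9, a bromodomain protein that binds acetylated lysines, and around the scaffold proteins GLTSCR1, encoded by BICRA, and GLTSCR1L, encoded by BICRAL, which occupy the same place and so exclude each other. SS18, or its paralog SS18L1, is a subunit of this complex and of canonical BAF. In synovial sarcoma a translocation joins SS18 to an SSX gene on the X chromosome, and the fusion protein enters both complexes and drives the tumour. The fusion is transcribed from the SS18 promoter and ends in the last exons of the SSX gene, so a count per gene adds reads of the intact gene and of the fusion for SS18 and likewise for SSX1. WA-68 acts on the BRD9 protein, which was not analysed here, so the BRD9 transcript does not check the labels of the libraries.

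Assigned counts ran from 7349744 to 13200051 per library, and the 6 genes had between 304 and 2899 counts in a library, a counting error of 1.86% to 5.74%. All 8 markers of synovial sarcoma, SSX1 itself among them, had a median of at least 1 CPM, led by FZD10 at 394 CPM and with CRABP1 lowest at 1.37 CPM. Markers of other cells were near 0, with 14 counts over all 10 libraries for 4 leukocyte genes, 3 counts for 3 endothelial genes and 5 counts for 3 skeletal muscle genes, and with PTPRC, CD3E, PECAM1, MYOD1 and MYOG at 0. In bulk RNA, fewer cells of a type and less RNA per cell cannot be told apart. DMSO replicate 2 and 96 h replicate 2 stood apart on the second principal component, at -24.2 and -26.0, with the other 8 libraries between -0.71 and 14.4. The Spearman correlation across genes between the log2 difference of replicate 2 minus replicate 1 and GC content was 0.57 for DMSO, -0.06 at 12 h, -0.17 at 24 h, -0.29 at 48 h and 0.29 at 96 h.

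BICRAL was the one gene of the 6 called under WA-68: it was higher at every time, by 1.29 to 1.39-fold, with no further movement detected between 12 and 96 h. BRD9, the gene whose product is degraded, was lower in every treated library, by a small amount that did not pass the test. BICRA, SS18, SS18L1 and SSX1 did not pass the test at any time. Levels are TMM-scaled CPM, that is counts divided by library sizes corrected for composition, and changes are log2 fold changes of WA-68 over DMSO from edgeR's quasi-likelihood test. Calls were made at an adjusted p under 0.05, by the Benjamini-Hochberg method over all 16382 genes tested.

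At 12 h 1 of the 6 genes was called, against 3.15% of all tested genes. At 24 h 1 was called, against 3.6% of all tested genes, at 48 h 1 against 9.39%, and at 96 h 1 against 13%. With the 4 times averaged 1 was called, against 12.1% of tested genes. A joint test of the 4 times called 1, against 10.9%. A trend per doubling of time over the 4 WA-68 times called 0 of the 6, against 6.37% of tested genes, in edgeR and likewise 0 in DESeq2 and limma-voom. At an unadjusted p under 0.05 the trend named 2, BICRA and SSX1. The gene called was BICRAL each time, and 1 call among 6 genes is too few to say anything of the 6 as a group. The median log2 fold change of the 6 was -0.11, -0.02, -0.08 and 0.11 at 12, 24, 48 and 96 h, while that of all tested genes lay between -0.01 and 0.00.

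**Figure D1:**
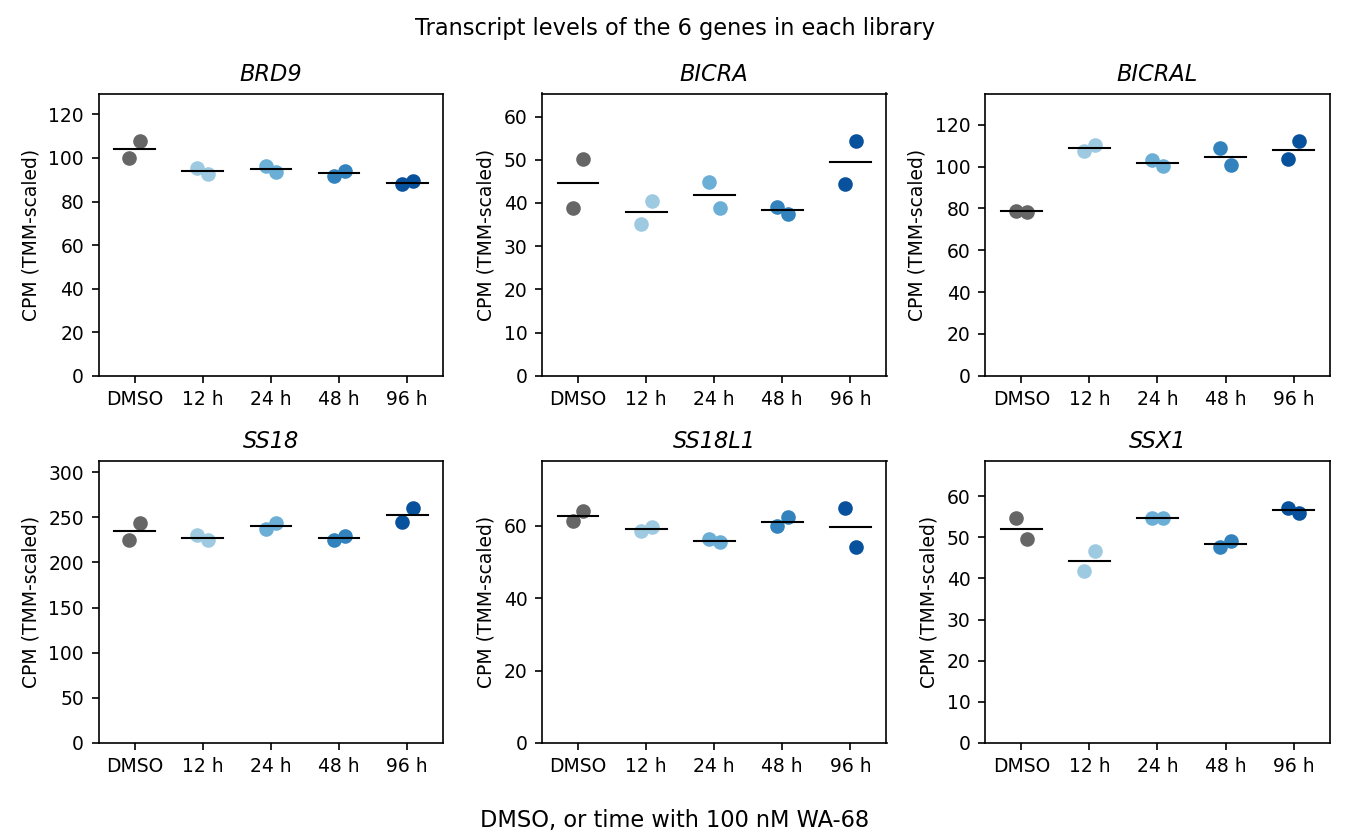
Transcript level of each of the 6 genes (y axis, TMM-scaled CPM, from 0) in every library, by group along the x axis (DMSO, then 12, 24, 48 and 96 h of WA-68); points are libraries and bars are means of 2. All 8 WA-68 libraries lie above both DMSO libraries for BICRAL and below both for BRD9; for the other 4 genes the 8 WA-68 libraries overlap with DMSO.

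BRD9 (ENSG00000028310) lies on the minus strand at chr5:850291-892824 (GRCh38, GENCODE release 29). Its level was 100.1 and 108.0 CPM in DMSO, 95.6 and 92.8 CPM at 12 h, 96.3 and 93.6 CPM at 24 h, 91.7 and 94.1 CPM at 48 h, and 88.2 and 89.2 CPM at 96 h. The 8 treated libraries were all below both DMSO libraries, which held for 8.7% of all tested genes. The group mean was 88.7 ± 0.735 CPM at 96 h and 104.1 ± 5.61 CPM in DMSO (SD, n = 2 each). The log2 fold change of BRD9 was -0.14 at 12 h (adjusted p = 0.479), -0.13 at 24 h (adjusted p = 0.502), -0.16 at 48 h (adjusted p = 0.29) and -0.23 at 96 h (adjusted p = 0.0935) in edgeR. At 96 h the 95% interval was -0.41 to -0.05, so a 2-fold decrease lies outside it. Averaged over the 4 times it was -0.17 (95% interval -0.31 to -0.02, adjusted p = 0.131 in edgeR). With an offset for GC content both were called in edgeR. The change was then -0.24 at 96 h (adjusted p = 0.0119) and -0.15 for the mean (adjusted p = 0.0482). That fit called more genes in all, 3293 of 16382 at 96 h and 3003 averaged, against 2129 and 1984 without the offset. BRD9 had a slope of -0.03 per doubling of time (95% interval -0.09 to 0.03), so a continued decline after 12 h was not detectable.

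BRD9 starts close to TRIP13, the gene of an ATPase of the mitotic checkpoint, which is transcribed the other way. In GENCODE the 2 gene bodies overlap by 182 bases. RefSeq gives BRD9 2 starts, and the gene counts do not say which was used. The outer one, at 892801, is 83 bases from the TRIP13 start, at 892884, and the other, at 892550, is 334 bases from it. The promoter window of the outer BRD9 start, 250 bases before it and 50 after, therefore holds the TRIP13 start as well. It is shown because 1 stretch of DNA holds the starts of 2 genes, of which TRIP13 was called at 48 and 96 h and BRD9 was not, at chr5:892752-893051, minus strand, GRCh38.p14, from RefSeq, with the single match to GGGCGG, which lies on the other strand, in capitals.
BRD9: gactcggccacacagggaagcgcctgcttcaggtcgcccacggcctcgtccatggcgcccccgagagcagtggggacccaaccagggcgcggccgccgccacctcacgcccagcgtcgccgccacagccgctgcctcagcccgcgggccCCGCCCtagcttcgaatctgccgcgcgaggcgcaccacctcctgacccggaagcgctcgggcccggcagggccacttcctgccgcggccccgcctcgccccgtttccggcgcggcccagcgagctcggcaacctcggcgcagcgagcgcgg
The window holds 43 CpG dinucleotides, more than 95.02% of 34943 RefSeq promoter windows of the same length, whose median is 14.

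TRIP13 had 68.2 and 71.2 CPM in DMSO, 68.9 and 63.0 CPM at 12 h, 55.4 and 56.8 CPM at 24 h, 47.0 and 50.9 CPM at 48 h, and 51.8 and 48.0 CPM at 96 h. Treated and DMSO libraries overlapped at 12 h and were apart at the 3 later times. The share of all tested genes apart at a single time was not counted. TRIP13 had a log2 fold change of -0.08 at 12 h (adjusted p = 0.76), -0.31 at 24 h (adjusted p = 0.0717), -0.51 at 48 h (adjusted p = 0.00159) and -0.48 at 96 h (adjusted p = 0.00145) in edgeR. Its slope was -0.14 per doubling of time (adjusted p = 0.0068 in edgeR), a call that was lost without 12 h replicate 1 (adjusted p = 0.151). The difference between the changes of the 2 genes was not tested. The libraries were stranded, but which strand setting was used in counting is not given in the sources used here. Of the 10280 distinct 50-base stretches in BRD9 transcripts, 133 also occur on the opposite strand in TRIP13 and 177 in ZDHHC11, which overlaps the far end of BRD9 by 696 bases on the same strand.

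BICRAL (ENSG00000112624) lies on the plus strand at chr6:42746958-42868560. Its level was 78.7 and 78.4 CPM in DMSO, 107.2 and 110.4 CPM at 12 h, 103.2 and 100.1 CPM at 24 h, 108.7 and 100.8 CPM at 48 h, and 103.4 and 112.4 CPM at 96 h. The lowest treated library, at 100.1 CPM, was well above both DMSO libraries. All 8 treated libraries lay above both DMSO libraries, as for 7.2% of all tested genes.

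The log2 fold change of BICRAL was 0.47 ± 0.09 at 12 h (SE, adjusted p = 0.00383), 0.37 ± 0.09 at 24 h (adjusted p = 0.0224), 0.42 ± 0.09 at 48 h (adjusted p = 0.00479) and 0.46 ± 0.09 at 96 h (adjusted p = 0.00126) in edgeR. Averaged over the 4 times it was 0.43, a 1.34-fold rise (95% interval 0.28 to 0.58, adjusted p = 0.000342), and the joint test gave an adjusted p of 0.00406. The slope of BICRAL was 0.00 per doubling of time (95% interval -0.06 to 0.06, adjusted p = 0.999), so the rise was in place by 12 h with no further movement detectable. The call was lost at 12 h without 12 h replicate 1 (adjusted p = 0.0565) or 2 (adjusted p = 0.0836), where the log2 fold change was 0.49 and 0.45. At 24 h it was lost without either 24 h library or with the 2 groups compared alone, and at 48 h without 48 h replicate 1. The averaged change was called in all 20 alternatives, at 0.41 to 0.49 on the log2 scale.

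**Figure D2:**
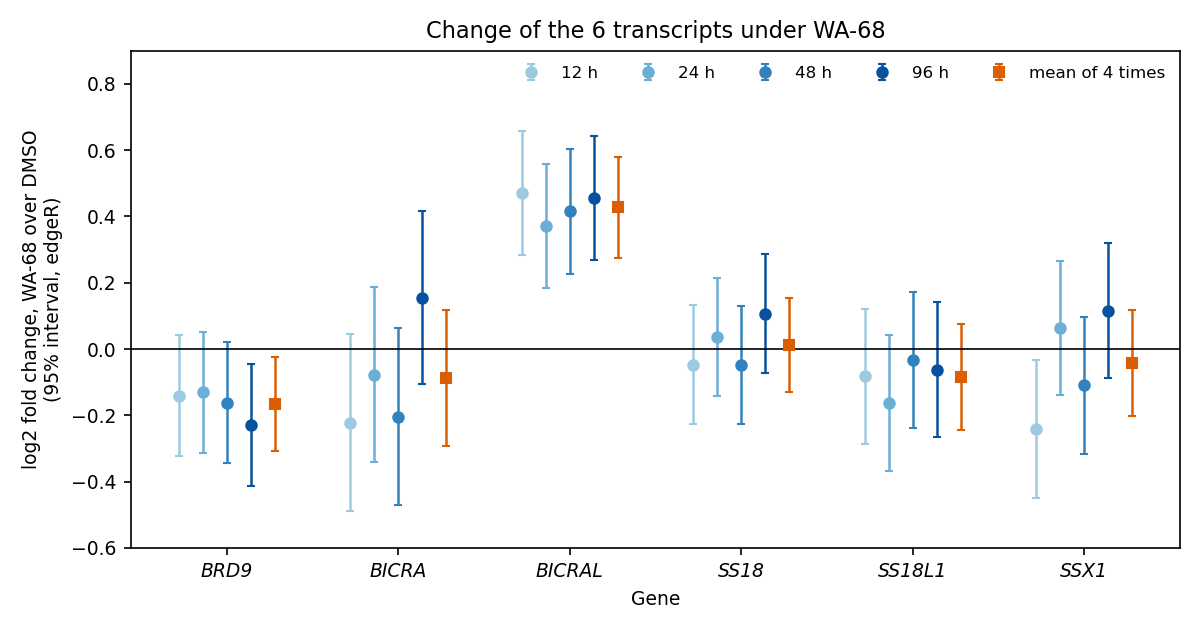
Log2 fold change of WA-68 over DMSO (y axis) for each of the 6 genes along the x axis; circles are single times from 12 h (light blue) to 96 h (dark blue), orange squares are the mean of the 4 times, and bars are 95% intervals from edgeR. The BICRAL intervals lie above 0 at each time, with the mean at 0.43, while those of BICRA, SS18 and SS18L1 include 0 throughout.

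RefSeq gives BICRAL 3 starts, and the gene counts do not say which was used. The windows of the first start, at chr6:42746737-42747036, and of the second, at chr6:42781802-42782101 (plus strand, GRCh38.p14), are shown because BICRAL was the gene called higher. Capitals mark a CCAAT in the first and the matches to GGGCGG on either strand in both.
BICRAL start 1: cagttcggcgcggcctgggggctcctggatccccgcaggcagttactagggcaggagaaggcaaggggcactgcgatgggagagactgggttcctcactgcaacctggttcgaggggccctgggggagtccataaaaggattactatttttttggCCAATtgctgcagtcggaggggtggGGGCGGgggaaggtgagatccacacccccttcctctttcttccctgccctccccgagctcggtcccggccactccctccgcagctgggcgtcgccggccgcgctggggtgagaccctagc
BICRAL start 2: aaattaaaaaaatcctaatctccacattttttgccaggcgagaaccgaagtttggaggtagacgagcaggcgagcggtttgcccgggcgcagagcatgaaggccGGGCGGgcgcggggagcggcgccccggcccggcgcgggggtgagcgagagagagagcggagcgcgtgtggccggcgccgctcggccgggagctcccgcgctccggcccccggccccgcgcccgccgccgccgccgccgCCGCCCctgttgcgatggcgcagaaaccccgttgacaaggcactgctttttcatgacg
The first window holds 17 CpG, near the median of 14, and the second 43. The third start, at 42821056, has 5 CpG in its window and a TATAAA. The motifs were searched on both strands as exact letters; CCAAT occurs in 34.7%, GGGCGG in 44.9% and TATAAA in 11.6% of all 34943 windows. CACGTG (in 7.23% of windows) and TGACGTCA (in 1.84%) were in none of the 11 windows of the 6 genes.

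The nearest tested gene before BICRAL is TBCC, the gene of a tubulin folding cofactor, which starts 862 bases away on the other strand. TBCC was not called at any time, with log2 fold changes of -0.12, -0.20, -0.21 and 0.16 (adjusted p from 0.424 to 0.751 in edgeR). RPL7L1, a ribosomal protein-like gene on the other side, had 154.5 ± 2.62 CPM at 96 h and 193.4 ± 10.0 CPM in DMSO (SD, n = 2 each), a log2 fold change of -0.32 (adjusted p = 0.0171 in edgeR). It was called for the averaged times too, at -0.25 (adjusted p = 0.0178). Neither gene beside BICRAL was called higher. The RPL7L1 call at 96 h was lost without DMSO replicate 1 or 96 h replicate 2 and with only the groups compared, and the averaged one without DMSO replicate 1 or 12 h replicate 2 and with library size only.

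BICRA (ENSG00000063169), the paralog of BICRAL, lies on the plus strand at chr19:47608196-47703277. Its level was 38.8 and 50.2 CPM in DMSO, 35.2 and 40.4 CPM at 12 h, 44.96 and 38.9 CPM at 24 h, 39.1 and 37.5 CPM at 48 h, and 44.5 and 54.4 CPM at 96 h. The highest libraries were 96 h replicate 2 and DMSO replicate 2, the pair that stood apart from the rest, and DMSO spanned most of the treated values. The longest BICRA transcript has a GC content of 68.6%, the highest of the 6, which run down to 42.5% for SS18; the part of GC content in this spread was not tested. The log2 fold change of BICRA was -0.22 (95% interval -0.49 to 0.04), -0.08 (-0.34 to 0.19), -0.20 (-0.47 to 0.06) and 0.15 (-0.11 to 0.42) at 12, 24, 48 and 96 h. The adjusted p was 0.373 or above at each time in edgeR. The slope was 0.10 per doubling of time (95% interval 0.02 to 0.19, adjusted p = 0.159). The joint test of BICRA gave an adjusted p of 0.19 in edgeR, and 0.0335 without DMSO replicate 1. A lincRNA of GENCODE spans all of BICRA on the same strand, and it had 18 counts over the 10 libraries.

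The ratio of BICRAL to BICRA counts within a library is free of library scaling, but not of differences between libraries that follow GC content. The longest transcript has a GC content of 43.95% for BICRAL and 68.58% for BICRA, and the part of GC content in this ratio was not tested. Its range was 1.56 to 2.03 in DMSO, 2.73 to 3.04 at 12 h, 2.29 to 2.57 at 24 h, 2.69 to 2.78 at 48 h, and 2.06 to 2.32 at 96 h. Each treated library was thus above both DMSO libraries, with 96 h replicate 2, at 2.06, close to DMSO replicate 1, at 2.03. The mean log2 ratio was 1.35 ± 0.18 in the WA-68 libraries and 0.83 ± 0.27 in the DMSO libraries (SD, n = 8 and 2), a difference of 0.52. An exact two-sided permutation test of 8 against 2 libraries gave p = 0.0222, the smallest its 45 arrangements allow, and 0.0667 after adjustment over 3 ratios. A single ratio could thus not reach an adjusted p under 0.05, whatever its size. The test also treats the 8 WA-68 libraries as alike, although the mean log2 ratio ran from 1.13 at 96 h to 1.53 at 12 h. Without DMSO replicate 1 the difference was 0.71 and without DMSO replicate 2 it was 0.33, so its size rests on which DMSO library is kept.

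**Figure D3:**
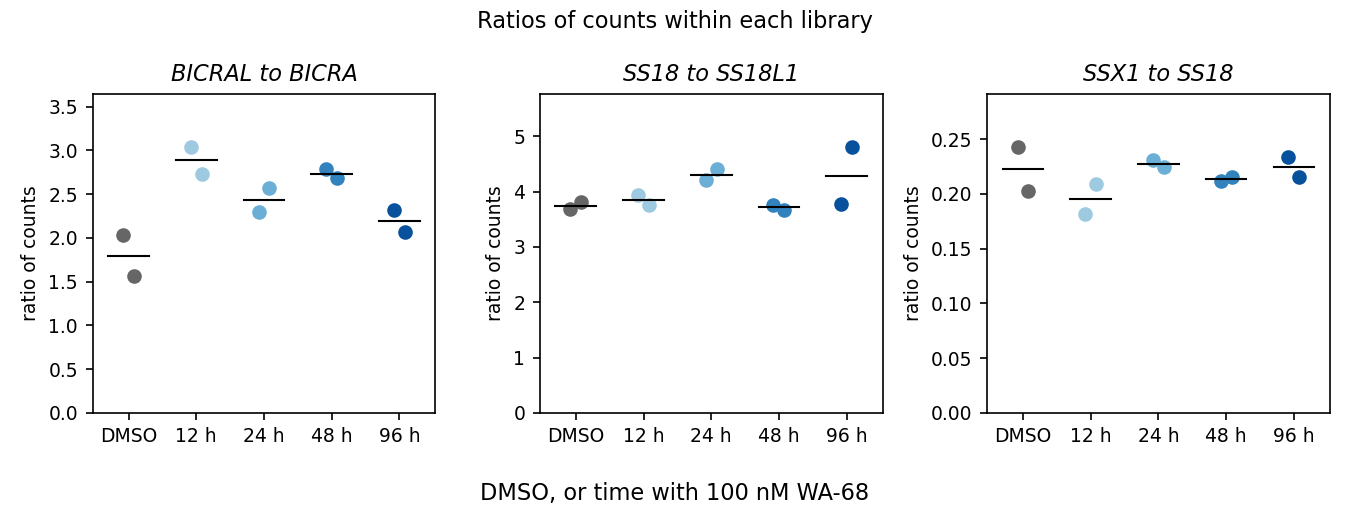
Ratio of counts within each library (y axis, from 0) for BICRAL to BICRA, SS18 to SS18L1 and SSX1 to SS18, by group along the x axis (DMSO, then WA-68 times); points are libraries and bars are means of 2. The BICRAL to BICRA ratio is 2.06 or more in each WA-68 library and 2.03 or less in both DMSO libraries; the other ratios overlap between WA-68 and DMSO.

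SS18 (ENSG00000141380) lies on the minus strand at chr18:26016253-26091217, and its counts include the fusion. Its level was 225.3 and 244.2 CPM in DMSO, 229.9 and 224.4 CPM at 12 h, 237.1 and 243.8 CPM at 24 h, 225.3 and 228.8 CPM at 48 h, and 245.1 and 260.7 CPM at 96 h. The highest library was 1.16 times the lowest, the narrowest range of the 6 genes. SS18 had a log2 fold change of -0.05, 0.04, -0.05 and 0.11 at 12, 24, 48 and 96 h, with an adjusted p of 0.466 or above in edgeR. The averaged change was 0.01 with a 95% interval of -0.13 to 0.15, so larger shifts in either direction lie outside it.

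SSX1 (ENSG00000126752) lies on the plus strand at chrX:48255317-48267444, and its counts include the fusion where the fusion partner is SSX1. Its level was 54.7 and 49.5 CPM in DMSO, 41.7 and 46.8 CPM at 12 h, 54.6 and 54.7 CPM at 24 h, 47.7 and 49.2 CPM at 48 h, and 57.2 and 56.0 CPM at 96 h. Both libraries lay below DMSO at 12 and 48 h, at 48 h by a narrow margin, and both above it at 96 h. Those at 24 h lay within the range of DMSO. The share of all tested genes set apart in this way at a single time was not counted, so this order is a description only. The log2 fold change of SSX1 was -0.24 (95% interval -0.45 to -0.03, adjusted p = 0.226), 0.06 (-0.14 to 0.27, adjusted p = 0.811), -0.11 (-0.32 to 0.10, adjusted p = 0.569) and 0.12 (-0.09 to 0.32, adjusted p = 0.497) in edgeR. The slope was 0.09 per doubling of time (95% interval 0.02 to 0.16, adjusted p = 0.101), and the joint test gave an adjusted p of 0.0903. Neither passed the test with all libraries. The slope was called in 5 of 21 alternatives. The slope itself does not use the DMSO libraries, and it stayed at 0.09 without either of them and with only the groups compared. With only the groups compared, 1539 of 16187 tested genes had a slope called, against 1043 of 16382 in the main fit. These alternatives are therefore not separate support for an SSX1 slope.

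Among the SSX genes examined, SSX1 was the one with enough counts to test. The 9 identifiers of SSX2, SSX2B, SSX3, SSX4, SSX4B, SSX5, SSX7 and SSX9P had 12 counts in all over the 10 libraries, none with more than 2 in a library, and none was tested. SSX genes are near copies of each other. Of 1249 distinct 50-base stretches in the SSX1 transcript, 110 also occur in other genes, among them 45 in SSX6P and 41 in SSX7. Reads from those stretches may be dropped or assigned elsewhere depending on the handling of reads with several matches, which is not given in the sources used here.

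Windows at the starts of both fusion partners are shown because the fusion keeps the SS18 start and lacks that of SSX1. They are at chr18:26091170-26091469, minus strand, and chrX:48255142-48255441, plus strand (GRCh38.p14, RefSeq), with CCAAT and its complement ATTGG in capitals.
SS18: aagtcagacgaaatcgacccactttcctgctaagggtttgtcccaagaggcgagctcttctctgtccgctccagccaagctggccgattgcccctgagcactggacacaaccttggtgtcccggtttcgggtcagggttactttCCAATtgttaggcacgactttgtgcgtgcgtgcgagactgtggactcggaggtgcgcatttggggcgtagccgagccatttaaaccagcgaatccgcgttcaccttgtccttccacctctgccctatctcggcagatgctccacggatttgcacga
SSX1: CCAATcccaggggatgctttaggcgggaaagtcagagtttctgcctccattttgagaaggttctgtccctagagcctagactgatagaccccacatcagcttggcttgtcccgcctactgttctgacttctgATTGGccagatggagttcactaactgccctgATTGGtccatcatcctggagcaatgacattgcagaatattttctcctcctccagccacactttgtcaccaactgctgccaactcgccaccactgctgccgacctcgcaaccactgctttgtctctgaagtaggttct
In the SS18 window there are 21 CpG and 1 CCAAT, and in that of SSX1 5 CpG and 3 CCAAT. A second SS18 start, at 26090613, has 23 CpG and 1 GGGCGG in its window.

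The ratio of SSX1 to SS18 counts lay between 0.182 and 0.234 in the WA-68 libraries and was 0.243 and 0.203 in the DMSO libraries. The mean log2 ratio was -2.22 ± 0.11 in WA-68 and -2.17 ± 0.18 in DMSO (SD, n = 8 and 2), a difference of -0.05 (exact two-sided permutation p = 0.644, adjusted p = 0.644). Without DMSO replicate 1 the difference turned to 0.08. Per kb of exon the SSX1 to SS18 ratio was between 0.860 and 1.11 in WA-68 and between 0.961 and 1.15 in DMSO. Each gene's counts were divided here by its full exon length, although the fusion holds only part of either gene, so this ratio gives no share of fusion transcripts.

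SS18L1 (ENSG00000184402), the paralog of SS18 known as CREST and studied mainly in neurons, lies on the plus strand at chr20:62143795-62182484. Its level was 61.2 and 64.0 CPM in DMSO, 58.5 and 59.6 CPM at 12 h, 56.4 and 55.4 CPM at 24 h, 59.9 and 62.4 CPM at 48 h, and 65.0 and 54.2 CPM at 96 h. Both libraries lay below both DMSO libraries at 12 and 24 h, but the share of all tested genes that did so was not counted. The 96 h replicates lay at either end of the whole range. SS18L1 had a log2 fold change of -0.08, -0.16, -0.03 and -0.06 at 12, 24, 48 and 96 h, with an adjusted p of 0.442 or above in edgeR. The averaged change had a 95% interval of -0.24 to 0.07. The SS18 to SS18L1 count ratio lay between 3.66 and 4.81 in WA-68 and was 3.68 and 3.82 in DMSO, a difference of 0.10 on the log2 scale (exact two-sided permutation p = 0.422, adjusted p = 0.633).

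Levels were set against each other per kb of exon, with lengths from GENCODE. SSX1 averaged 39.5 and SS18 38.5 CPM per kb over the 10 libraries, and their ranges of 32.1 to 44.1 and 36.5 to 42.4 overlapped. BICRAL averaged 14.7 CPM per kb, SS18L1 11.7, BRD9 9.92 and BICRA 5.65. BICRAL had between 14.6 and 16.4 CPM per kb in the WA-68 libraries and 11.51 and 11.45 in DMSO. It was thus above each SS18L1 value under WA-68, which ran from 10.6 to 12.8, and below both DMSO values of SS18L1, at 12.02 and 12.55. SS18L1 and BRD9 overlapped over all libraries, with BRD9 between 9.215 and 11.3, although SS18L1 was the higher of the 2 within all 10. BICRA, between 4.69 and 7.25 CPM per kb, was below every value of the other 5 genes. The order depends on the length used. By the longest transcript of each gene, SS18 averaged 69.3, SSX1 39.5, BRD9 19.5, BICRAL 15.4, SS18L1 13.3 and BICRA 7.39 CPM per kb.

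**Figure D4:**
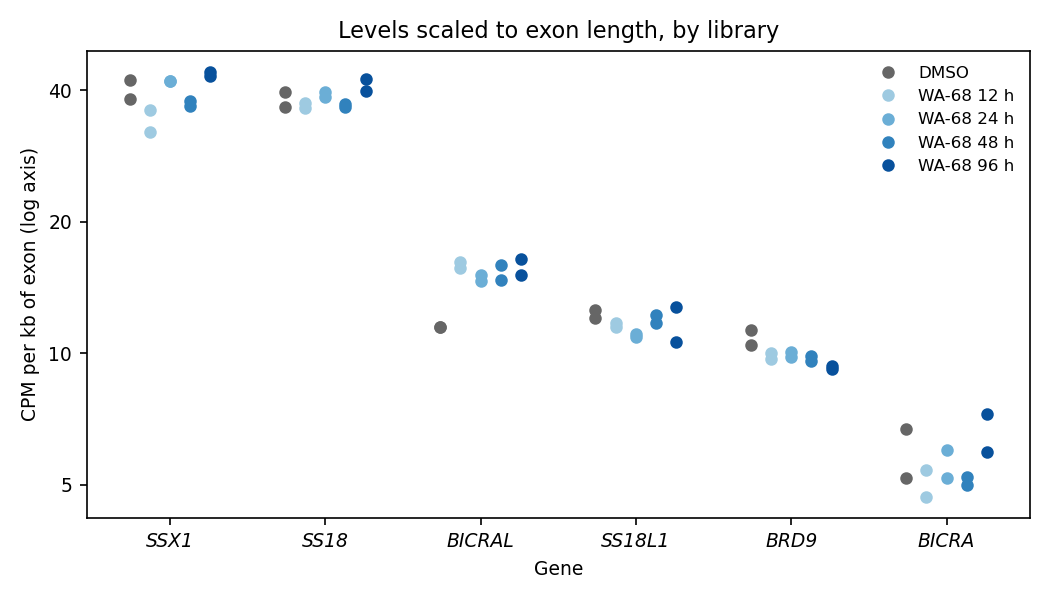
Level per kb of exon (y axis, CPM per kb, log axis) of each gene in each library, with genes along the x axis in order of their mean; grey points are DMSO and blue points WA-68 from 12 h (light) to 96 h (dark). SSX1 and SS18 share the top of the range, BICRA is lowest, and BICRAL passes SS18L1 under WA-68.

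The other genes of the complex were described by 2 lists of subunits. Of all 16382 tested genes, 3.15% were called at 12 h, 3.6% at 24 h, 9.39% at 48 h, 13% at 96 h, 12.1% for the averaged times and 10.9% in the joint test, against which the counts of both lists are read. Of 9 subunits that ncBAF shares with other BAF complexes, all tested, 0 were called at 12 h and 0 at 24 h in edgeR, and likewise 0 in DESeq2 and limma-voom. An unadjusted p under 0.05 was reached by 3 of them, SMARCC1, SMARCA4 and ACTB, at both times. At 48 h ACTB, the gene of beta-actin, was called at a log2 fold change of -0.34 (adjusted p = 0.0271 in edgeR), and at 96 h SMARCC1, the gene of a scaffold subunit, at -0.33 (adjusted p = 0.0122). Averaged over the times 3 of the 9 were lower, ACTB at -0.27 (adjusted p = 0.02), SMARCC1 at -0.27 (adjusted p = 0.0098) and SMARCA4, the gene of an ATPase of the complex, at -0.25 (adjusted p = 0.0287). The 48 h call of ACTB held in 11 of 21 alternatives, and was lost without DMSO replicate 2 (adjusted p = 0.199 in edgeR) or either 48 h library. The averaged call of SMARCA4 held in 12 of 20 alternatives, that of ACTB in 16 and that of SMARCC1 in 19. Without DMSO replicate 2 the averaged calls of SMARCA4 (-0.14) and ACTB (-0.16) were lost, as they were without replicate 2 of 12, 24 or 48 h, and SMARCA4 also lost its call without 12 h replicate 1. SMARCC1 lost the averaged call without DMSO replicate 1, and its 96 h call without that library or 96 h replicate 1. The joint test called 0 of the 9 in edgeR, where 4 had an unadjusted p under 0.05, but SMARCC1 in both DESeq2 and limma-voom. The median log2 fold change of the 9 was -0.08, -0.05, -0.25 and -0.05 at 12, 24, 48 and 96 h.

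Of 14 subunits particular to canonical BAF or PBAF, 13 were tested, with DPF3 too low. At 12 h 0 and at 24 h 0 of them were called in edgeR, DESeq2 or limma-voom, and 2 and 0 had an unadjusted p under 0.05. At 48 h 2 were lower, SMARCD2 at -0.32 (adjusted p = 0.0455 in edgeR) and SMARCB1 at -0.32 (adjusted p = 0.0494), calls that held in 6 and 5 of 21 alternatives. SMARCD2 was -0.21 at 48 h without 48 h replicate 2, and SMARCB1 -0.20 without DMSO replicate 2. SMARCB1 is the core subunit that the fusion protein is known to displace from BAF. At 96 h SMARCD2 was lower at -0.32 (adjusted p = 0.0334) and its paralog SMARCD3 higher at 0.29 (adjusted p = 0.0436), in 12 and 10 of 21 alternatives. Without DMSO replicate 1, SMARCD3 was 0.17 at 96 h (adjusted p = 0.326 in edgeR). For the averaged times SMARCD2 was lower, at -0.26 (adjusted p = 0.0314), in 12 of 20 alternatives, and at -0.16 without DMSO replicate 2. The joint test called DPF1, a subunit of neuronal BAF, with an adjusted p of 0.0402 in edgeR, in 11 of 20 alternatives, and its log2 fold change ran from -0.45 at 48 h to 0.38 at 96 h. The median of the 13 was -0.01, -0.04, -0.06 and 0.10 at the 4 times.

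Of the 12 genes that neighbour the 6, TRIP13, RPL7L1, TAF4B, PSMA7, LINC02982 and FTSJ1 were called in at least 1 of the 6 comparisons with DMSO (4 times, averaged and joint), as were 18.9% of all tested genes. TAF4B, which encodes a variant subunit of the general factor TFIID, starts 134719 bases from SS18. It had 17.7 ± 1.34 CPM at 96 h and 35.0 ± 4.69 CPM in DMSO (SD, n = 2 each). TAF4B fell by 0.49, 0.71, 0.78 and 1.00 on the log2 scale at 12, 24, 48 and 96 h (adjusted p = 0.0335, 0.00221, 0.0006 and 1.96e-05 in edgeR), while SS18 was called at none of them. The TAF4B call at 12 h was lost without DMSO replicate 1 or either 12 h library, in DESeq2 (adjusted p = 0.0994) and with library size only (adjusted p = 0.0866), and that at 24 h without 24 h replicate 1. The averaged call of TAF4B held in all 20 alternatives. PSMA7, the gene of a proteasome core subunit that starts 355 bases from SS18L1, fell by 0.35 at 96 h (adjusted p = 0.0129 in edgeR), a call lost without 96 h replicate 2 and with only the groups compared. LINC02982, a non-coding gene 104484 bases from BRD9, was higher by 1.04 at 96 h (adjusted p = 0.00889 in edgeR), at 5.94 ± 0.0702 CPM at 96 h and 2.81 ± 0.636 CPM in DMSO (SD, n = 2 each), a call lost without DMSO replicate 2. FTSJ1, the gene of a tRNA methyltransferase near SSX1, was lower by the averaged contrast, at -0.31 (adjusted p = 0.0211 in edgeR), a call lost without DMSO replicate 2 or 12 h replicate 2 and with library size only. The averaged change of FTSJ1 was -0.13 without DMSO replicate 2 (adjusted p = 0.444 in edgeR) and -0.48 without DMSO replicate 1. NAPA, EHD2, IMPACT, MTG2, ZNF182 and TBCC were called in none of these comparisons.

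**Figure D5:**
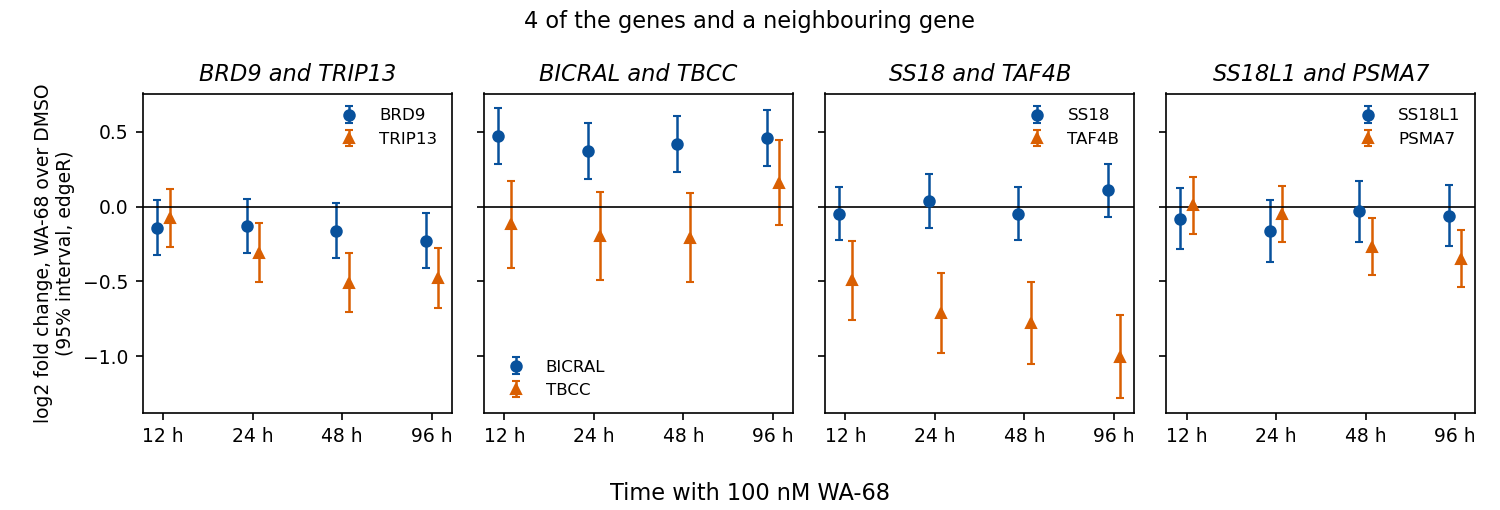
Log2 fold change of WA-68 over DMSO (y axis) at 12, 24, 48 and 96 h (x axis) for 4 of the genes (blue circles) and a neighbour of each (orange triangles), with 95% intervals from edgeR. TAF4B is lowest at 96 h beside an SS18 between -0.05 and 0.11, TRIP13 is at -0.51 at 48 h beside BRD9 at -0.16, and the BICRAL value is above that of TBCC at each time.

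The genes whose log2 CPM was most like that of each of the 6 were taken over the 10 libraries from 11817 candidates with a mean of at least 5 CPM. These correlations share the treatment groups and any differences between libraries that scaling did not remove, and are descriptions only. For BICRAL, Pearson's r was 0.95 with RSPO2 and 0.94 with RASSF8. For BRD9 it was 0.97 with ASIC4 and 0.96 with both PFKFB3 and HR. For BICRA it was 0.96 with SMARCC2, itself a BAF subunit, 0.95 with SERPINB6 and 0.94 with PARP12. Both BICRA and SMARCC2 were highest in 96 h replicate 2 and DMSO replicate 2, the libraries that stood apart. SMARCC2 had 307.2 and 298.1 CPM there, and the part of these libraries in the correlation was not tested. For SS18, Pearson's r was 0.94 with C1orf159, 0.93 with TEX2 and 0.92 with OAZ2. For SS18L1 it was 0.92 with both PDCD2 and SELENOO and 0.91 with CDK10. SSX1 had the lowest values, 0.90 with RBBP6, 0.87 with HCG25 and 0.85 with KLHL11.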

How the data were processed

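Per the labels' protocols, column-purified RNA was made into stranded poly(A) libraries and sequenced as paired ends. The submitters' processing notes name bcl2fastq, FastQC, Trim Galore, cutadapt, STAR, featureCounts and GRCh38. Not given in the sources used here are versions, annotation release, strand setting and the handling of reads with several matches. The authors deposited raw read counts per gene with no normalization. Gene names came from a gene name table, which matched 62541 of 63140 identifiers. Lengths and positions came from GENCODE release 29, and promoter windows from RefSeq (GRCh38.p14), which held all 6 genes.

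Counts were fitted in edgeR 4.0.16 (R 4.3.3) with 1 mean per group over all 10 libraries, TMM scaling and filterByExpr, and tested with the quasi-likelihood F test with Benjamini-Hochberg adjustment over 16382 genes. There were 5 residual degrees of freedom, and the common biological coefficient of variation was 7.17%. Replicates differed more in some groups than in others. Set against counting error, the chi-square between replicates averaged 6.88 per gene in DMSO and 2.2, 2.17, 2.66 and 9.51 at 12, 24, 48 and 96 h. The fit pools the spread over the 5 groups, so p-values at single times do not reflect these differences. Fits were tested on simulated data, with the same change at each WA-68 time in genes drawn at random from those tested. The 6 genes had mean CPM at percentiles 65.25 to 95.93 of tested genes, so their own recovery may differ. Of 1.25-fold changes in 50 genes, edgeR recovered 8% to 24% at single times and 38% averaged. Of 2-fold changes it recovered 90% in each of these comparisons. A small change can therefore go uncalled. The standard error was the log2 fold change over the square root of F. Count ratios used 0.5 added to each count. Comparisons with DMSO share its 2 libraries.

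The text names the 6 genes, each gene of the 2 subunit lists called against DMSO, the nearest tested gene on each side by start, and the 3 genes most correlated with each, of which 1 is not reported here. The members and lists were chosen with earlier results of these data known. Alternatives were library size only, upper-quartile or RLE factors, no filter, at least 5 CPM in 2 libraries, a replicate block, only the groups compared, each library left out, the 2 libraries that stood apart left out, DESeq2 1.42.0, limma-voom (limma 3.58.1) and a GC offset. The longest transcript as length was added after the data were seen.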

Additional observations from a re-analysis of the deposited data

Results flagged for a closer look

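SSX1 libraries of single times did not all lie on the same side of DMSO. Both lay below both DMSO libraries at 12 h (log2 fold change -0.24) and 48 h (-0.11), and both above at 96 h (0.12). At 48 h the closest values were 49.2 CPM under WA-68 and 49.5 CPM in DMSO. No single time was called, and the share of all tested genes set apart in this way was not counted. The difference over time was tested by the slope, which gave an adjusted p of 0.101 in edgeR and was not called. Over the 4 WA-68 times, the change of SMARCD3 per doubling of time was called at 0.10, in 11 of 21 alternatives. The same slope was called for 3 neighbouring genes, TRIP13 at -0.14, TAF4B at -0.16 and PSMA7 at -0.13, in 20, 13 and 19 of 21 alternatives. The slope of TAF4B lost its call in DESeq2 (adjusted p = 0.0951) and in 7 of the fits that left out a library, that of PSMA7 without 12 h replicate 1 (adjusted p = 0.19 in edgeR) or 96 h replicate 2 (adjusted p = 0.0734), and that of TRIP13 without 12 h replicate 1.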

How the results depend on the processing

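Of 42 results of the 6 genes, 33 kept their side of the threshold in each of the 21 alternatives (20 for the averaged and joint tests). With libraries left out, the number of the 6 called ranged from 0 to 2 at 12 h, from 0 to 1 at 24 h, at 48 h and for the slope, and from 1 to 3 for the joint test. It was 0 at 24 h and 1 for the slope (SSX1) with only the groups compared. The GC offset gave 2 at 96 h and averaged (BICRAL and BRD9), 2 for the joint test (BICRAL and SSX1) and 1 for the slope (SSX1). Leaving out DMSO replicate 2 and 96 h replicate 2 together gave 2 at 12 h, 1 for the slope and 2 for the joint test, SSX1 being the added gene. The SSX1 to SS18 ratio difference turned to 0.08 without DMSO replicate 1, in a range of -0.179 to 0.08.

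Uncalled changes near 0 turned direction, and the cause was not tested. With libraries left out, SS18 ran from -0.105 to 0.012 at 12 h, -0.022 to 0.094 at 24 h, -0.105 to 0.011 at 48 h and -0.046 to 0.071 averaged. SSX1 ran from -0.001 to 0.142 at 24 h and -0.108 to 0.035 averaged. BICRA ran from -0.266 to 0.107 at 24 h, -0.035 to 0.338 at 96 h and -0.276 to 0.098 averaged. SS18L1 ran from -0.196 to 0.056 at 96 h and -0.022 to 0.054 in slope. Each low and high end came from a fit without 1 of the replicates. Without both libraries that stood apart, SS18 was 0.009 at 12 h and 0.014 at 48 h, SSX1 -0.001 at 24 h, BICRA 0.106 at 24 h and 0.063 averaged, and SS18L1 0.09 at 96 h. With library size only, SS18 was 0.019 at 12 h and 0.012 at 48 h, SS18L1 0.026 at 48 h and SSX1 0.014 averaged. SS18L1 was 0.007 at 48 h with upper-quartile factors, and SS18 -0.001 averaged with the GC offset.

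Replicate numbers did not pair the samples: replicate differences correlated between groups at -0.123 to 0.186. With a replicate block the calls among the 6 stayed at 1, 1, 1, 1, 1, 0 and 1, in the order 12, 24, 48 and 96 h, averaged, slope and joint. In that order 516, 589, 1539, 2129, 1984, 1043 and 1786 genes were called in all, 468, 527, 1412, 2031, 1871, 945 and 1628 with the block, and 1233, 1385, 2506, 3293, 3003, 1971 and 3278 with the GC offset. With only the groups compared they were 288, 953 and 1266 at 24, 48 and 96 h. With libraries left out the counts went from 106 to 1112 at 12 h, 108 to 1117 at 24 h, 431 to 2047 at 48 h and 295 to 1547 for the slope.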
